A study of Spodoptera frugiperda with 15 samples.

Results

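Spinetoram treatment was compared directly with cyantraniliprole treatment in whole bodies of the fall armyworm, *Spodoptera frugiperda*, with 3 RNA-seq libraries for each. A gene was included where the deposited FPKM (fragments per kilobase of transcript, scaled to the size of the library) was at least 1 in 3 or more of these 6 libraries. This kept 10373 of the 20784 genes in the table, or 49.9%, and 8148 of the 10373 carried an informative description. Of these genes 8701 reached FPKM 1 in all 6 libraries, while 62 entered through the 3 spinetoram libraries alone and 118 through the 3 cyantraniliprole libraries alone. The third-highest FPKM of the 505 genes kept by exactly 3 libraries had a median of 1.19 (range 1.0 to 46.2), and that of the 444 genes left out with 2 such libraries had a median of 0.857 (0.0001 to 0.999, where 0.0001 is the deposited stand-in for an FPKM of 0).

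The animals were labelled WT, and the labels give each group only the name of its agent, with no dose, exposure time, sex or developmental stage. The study has 15 libraries in 5 groups of 3, the other groups being a control, emamectin benzoate and tetrazolidamide. Nothing in the labels tells whether libraries within a group are separate animals, pools or rearings, so p-values cover only the spread between these samples, which may be technical. The 6 libraries held 50600821 to 77183281 counted units, at about 3.83 units for each read pair. Their log CPM correlated at 0.913 to 0.944 within a group (6 pairs) and at 0.908 to 0.931 between the groups (9 pairs). In whole bodies, fewer cells of a type and less RNA per cell cannot be told apart.

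Spinetoram is a spinosyn, which acts on nicotinic acetylcholine receptors of the insect nervous system. Cyantraniliprole is a diamide, which opens the ryanodine receptor, the calcium release channel of the muscle's sarcoplasmic reticulum. Insects clear such compounds with cytochrome P450s, carboxylesterases, glutathione S-transferases and UDP-glycosyltransferases, and larvae rebuild their chitin and protein cuticle at each moult under control of ecdysteroids and juvenile hormone.

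Few genes passed the threshold of the main edgeR fit, while DESeq2 called 577, so the count does not tell how many genes differ. Those that passed included neighbouring cuticle protein genes, a pair of calpains, a clock repressor and a ribosomal protein gene. Of 15505 genes tested by edgeR, 28 (0.181%) passed an adjusted p of 0.05, of which 16 (0.103%) were higher with spinetoram and 12 (0.0774%) higher with cyantraniliprole. Among the included genes 10371 were tested and 25 passed (0.241%), 15 higher with spinetoram (0.145%) and 10 higher with cyantraniliprole (0.0964%). Of the 25, 5 had reached FPKM 1 in the libraries of only 1 group, so that a difference was built into their inclusion: LOC118262636, LOC118272743, LOC118272785 and LOC118276931 with spinetoram and LOC118280242 with cyantraniliprole. At an unadjusted p under 0.05 there were 1369 of the 10371 (13.2%), 692 higher with spinetoram (6.67%) and 677 higher with cyantraniliprole (6.53%). Over all genes tested these shares were 5.94% and 5.74%. The median log2 fold change, spinetoram minus cyantraniliprole, was 0.0.

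The count of calls rested on the tool, on single libraries and on libraries outside the comparison. With edgeR, a fit of only the 6 libraries called 0 genes. A fit without tetrazolidamide called 2, with 1 of the 25 among them. DESeq2 called 577 genes (339 higher with spinetoram, 238 higher with cyantraniliprole), among them 443 of the 10350 included genes with an adjusted p (4.28%). Limma-trend on log2(FPKM + 1), without rescaling of the deposited FPKM, called 51 higher with spinetoram and 69 higher with cyantraniliprole. All 25 genes passed with both of these as well. The edgeR count was 3, 7 and 12 without cyantraniliprole 1, 2 and 3, and 29, 21 and 13 without spinetoram 1, 2 and 3. Of the 25 genes, 1, 3 and 8 then still passed without cyantraniliprole 1, 2 and 3, and 15, 12 and 9 without spinetoram 1, 2 and 3.

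Levels below are FPKM divided by the TMM scaling factor of the library, called scaled FPKM, because the deposited FPKM put the median included gene 0.17 lower on the log2 scale with spinetoram. With the scaled values, all 3 spinetoram libraries lay above all 3 cyantraniliprole libraries for 1018 of 10371 genes (9.82%) and below them for 1079 (10.4%). With the deposited values these numbers were 493 and 1913. All 25 genes had scaled values without overlap, but they were picked by their difference in these same libraries, so little overlap follows from the choice.

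**Figure D1:**
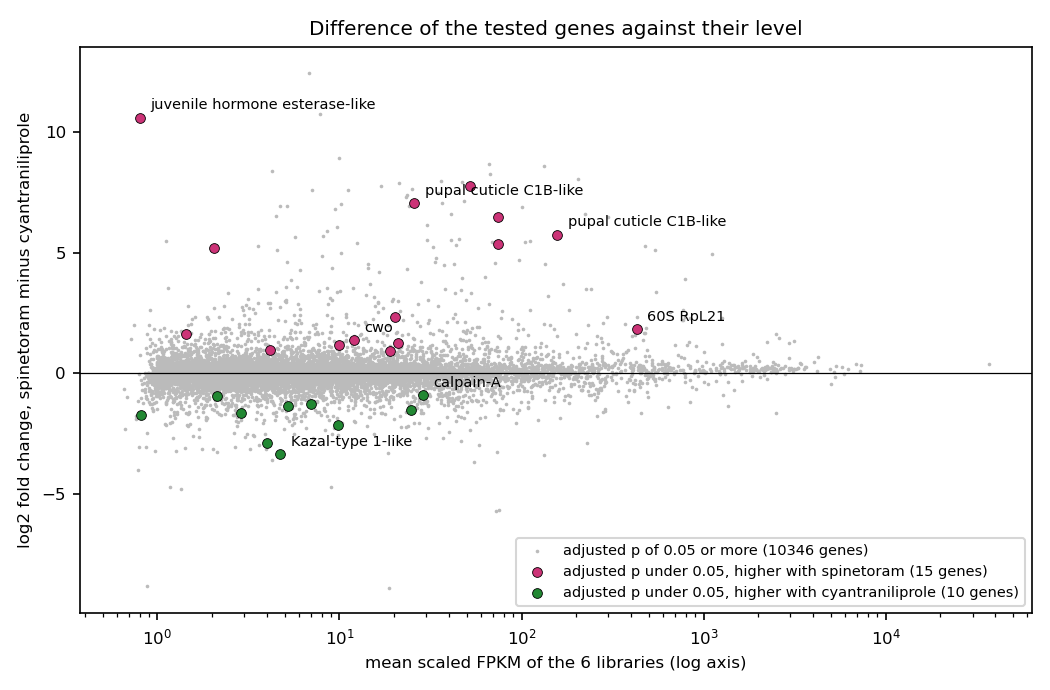
Each point is 1 of the 10371 tested genes, with its mean scaled FPKM over the 6 libraries on a log axis and its edgeR log2 fold change, spinetoram minus cyantraniliprole, on the vertical axis. The highest of the 15 genes past the threshold above 0, at 10.61, had no counts with cyantraniliprole, so that its fitted value depends on the prior count; the 10 below 0 lie between -0.92 and -3.36.

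Some genes in a stretch of neighbours that holds pupal cuticle protein C1B-like genes were far higher with spinetoram. The pupal cuticle protein C1B-like gene LOC118272659 had a scaled FPKM of 79.0, 347 and 500.0 in spinetoram 1, 2 and 3, against 6.84, 4.31 and 5.97 in cyantraniliprole 1, 2 and 3. Its log2 fold change was 5.75 (SE 0.76, edgeR adjusted p = 0.017). A neighbour with the same description, LOC118272785, included through its spinetoram libraries alone, had 19.4, 65.2 and 68.8 scaled FPKM with spinetoram and 0, 0.274 and 0.808 with cyantraniliprole (log2 fold change 7.05, SE 0.97, adjusted p = 0.017). Every spinetoram library was above every cyantraniliprole library, and spinetoram 1 was the lowest of the 3 in both genes. Cuticle protein 16.5 (LOC118272876), a structural protein of the same stretch, had 44.5, 151 and 246 against 2.12, 0.951 and 1.8 (log2 fold change 6.5, SE 1.05, adjusted p = 0.031). In the controls LOC118272659 had 20.4, 6.33 and 4.29, and with tetrazolidamide it had 926, 1074.6 and 1050.0, above every spinetoram library.

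The C1B-like genes stood in a row of 10 neighbouring tested genes, in the order of the deposited positions, that were all higher with spinetoram at an unadjusted p under 0.05. In the row 5 genes passed the adjusted threshold, the 3 above and LOC118272877 and LOC118272743, which carry no description. LOC118272877 had 34.9, 165 and 237 scaled FPKM with spinetoram against 2.42, 3.19 and 5.02 (log2 fold change 5.35, adjusted p = 0.019), and LOC118272743 had 46.2, 57.0 and 208 against 0.673, 0.438 and 0.272 (7.76, adjusted p = 0.031). The third C1B-like gene, LOC118272786, missed it at an adjusted p of 0.059 with 40.6, 23.9 and 201 against 0.966, 2.22 and 2.33. Toward the far end of the row the 3 spinetoram libraries parted: LOC118272879 had 131, 1.3 and 657 scaled FPKM, so that spinetoram 2 lay with cyantraniliprole 1 at 1.45. The adjusted p of the 5 passing genes ranged up to 0.097 to 0.17 when single libraries were left out, highest without cyantraniliprole 1 or 2. Reads of near-identical cuticle genes can be split between copies in estimated counts, so the shares of single members are uncertain.

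**Figure D2:**
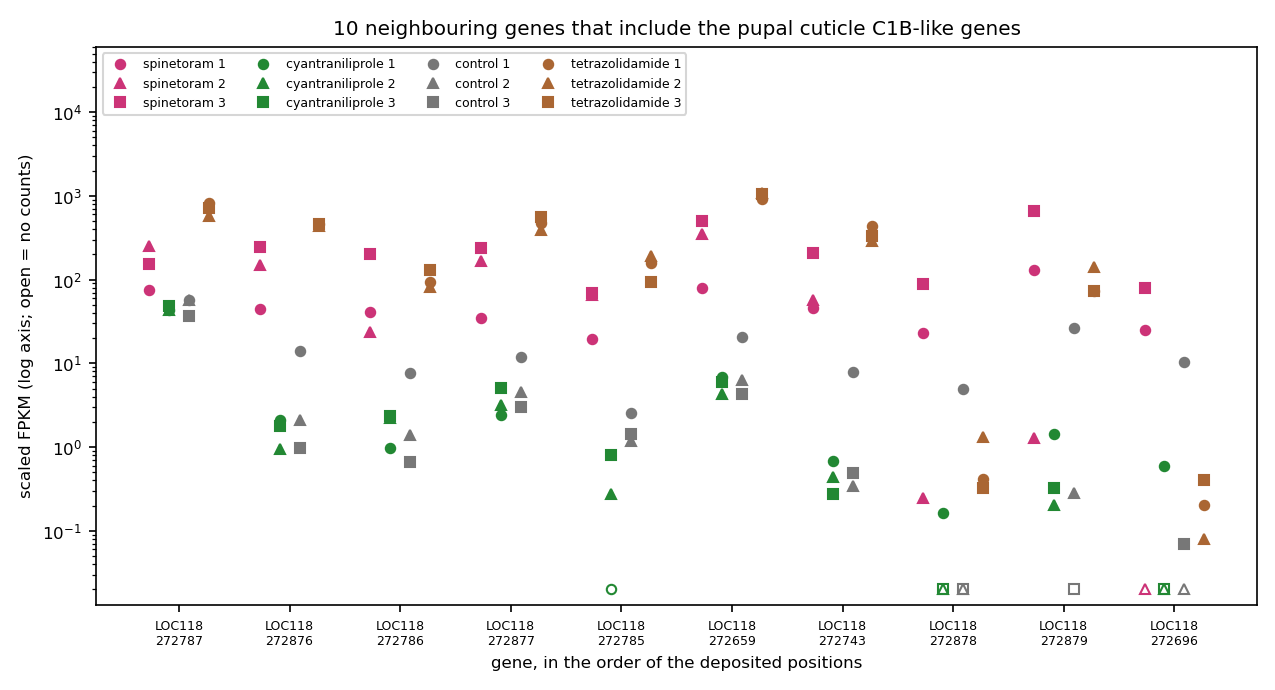
Scaled FPKM on a log axis of the 10 neighbouring genes that include the C1B-like genes, with 1 symbol shape for each library number and 1 colour for each of 4 groups; open symbols at the base mark libraries without counts. For LOC118272659 the spinetoram libraries run from 79.0 to 500.0, the cyantraniliprole libraries from 4.31 to 6.84 and the tetrazolidamide libraries from 926 to 1074.6.

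Over the whole list of cuticle proteins, which build the exoskeleton together with chitin, 3 of 126 genes passed by edgeR. All 3 were higher with spinetoram, where 0.145% of all included genes passed in that direction. At an unadjusted p under 0.05, 46 were higher with spinetoram and 1 with cyantraniliprole, against 6.67% and 6.53% of all included genes. DESeq2 called 34 higher with spinetoram and 0 with cyantraniliprole, where its background was 2.58% and 1.7%. The median log2 fold change was 0.63, the highest of 32 lists, with 84 genes above 0 and 42 below. All included genes had 5198 above 0 and 5173 below. The log2 fold change was above 3 in 36 of the cuticle genes, and the share of all included genes above 3 is not given here. Of the 46 genes, 1 had no counts in any cyantraniliprole library, and 27 lay in rows of 4 or more neighbouring genes that differed in the same direction. The groups did not overlap in 38 of them, where 9.82% of all included genes lay wholly higher with spinetoram. Since the 46 were picked by their difference in these same libraries, little overlap follows from the choice. The 46 also hold 15 genes that had entered only through the spinetoram libraries, which built in their direction.

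The cuticle difference was uneven among libraries of 1 group. Spinetoram 2 was the lowest of the 3 spinetoram libraries in 34 of the 46 genes and in 65 of all 126. The mean log2 CPM of the list, centred on all 15 libraries, was 1.35, 0.18 and 1.21 in spinetoram 1, 2 and 3 and -0.37, -0.83 and -0.88 in cyantraniliprole 1, 2 and 3. Among the controls it was 0.56, -1.45 and -1.88, and control 1 exceeded both other controls in 41 of the 46 genes. By share of all counted units the list did not separate the groups, with 3.7 ± 1.0% for spinetoram and 3.14 ± 0.24% for cyantraniliprole (SD, n = 3, two-sided exact permutation p = 0.5; 0.1 is the smallest p that 3 against 3 allows). The member with the smallest p in the other direction, endocuticle structural glycoprotein SgAbd-3-like (LOC118266524), had 2.93, 10.4 and 1.27 scaled FPKM with spinetoram and 12.1, 25.8 and 20.5 with cyantraniliprole (unadjusted p = 0.021, adjusted p = 0.33). Chitin synthase A (LOC118273150), which makes the chitin of the cuticle, had 19.1, 11.7 and 36.5 against 13.7, 13.2 and 9.72 (adjusted p = 0.35).

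A juvenile hormone esterase-like gene, LOC118262636, was without counts in all 3 cyantraniliprole libraries and was included through its spinetoram libraries alone, which fixed its direction among the included genes. Juvenile hormone esterase ends the juvenile hormone signal before a moult, although a description by similarity does not show that this gene has that role. Its scaled FPKM was 1.75, 1.51 and 1.57 in spinetoram 1, 2 and 3. Against a floor of 3 read pairs over the 3 cyantraniliprole libraries it was at least 55.6-fold higher (edgeR adjusted p = 0.049, up to 0.17 when a library was left out). The controls had 0.223, 0.0335 and 0.0609 and the emamectin benzoate libraries 0.105, 0.487 and 0.0992. The gene described as cholinesterase 1-like (LOC118263178) had 28.9, 42.8 and 4.07 with spinetoram against 2.01, 2.56 and 3.51 (log2 fold change 3.23, adjusted p = 0.11), and 31.6, 12.4 and 21.2 in the controls.

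Of 24 ecdysteroid and juvenile hormone genes, none passed, at a list median of 0.15. At an unadjusted p under 0.05 there was 1 in each direction, against 6.67% and 6.53% of all included genes. The nuclear receptor FTZ-F1 (LOC118267427), which acts late in the ecdysone response, had 24.6, 8.35 and 46.1 scaled FPKM with spinetoram and 11.2, 9.4 and 4.22 with cyantraniliprole (unadjusted p = 0.034, adjusted p = 0.38). Spinetoram 2 lay below cyantraniliprole 1 and 2 there. Juvenile hormone epoxide hydrolase-like (LOC118276057), of the other route of juvenile hormone breakdown, had 3.61, 3.05 and 5.37 against 5.48, 9.26 and 8.46 (unadjusted p = 0.011, adjusted p = 0.26).

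A second kind of difference was small in size and tight between libraries. The transcription factor cwo (LOC118282412), known from the fly as a repressor in the circadian clock, had 18.7, 17.8 and 15.2 scaled FPKM with spinetoram and 7.38, 6.13 and 6.63 with cyantraniliprole. Its log2 fold change of 1.36 (SE 0.15, edgeR adjusted p = 0.0062) passed without any single one of the 6 libraries, at an adjusted p of up to 0.035, as that of no other gene did. The controls had 15.2, 19.5 and 20.3, near the spinetoram libraries. The other gene described as cwo, LOC118261918, had 1.55, 5.27 and 5.15 against 2.7, 3.74 and 3.58 (adjusted p = 0.86).

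Calpains, calcium-activated proteases of the cytosol, went in opposite directions. Calpain-B (LOC118276618) had 24.6, 28.7 and 21.5 scaled FPKM with spinetoram and 13.2, 12.4 and 13.6 with cyantraniliprole (log2 fold change 0.93, SE 0.16, adjusted p = 0.039). Calpain-A (LOC118276629) had 19.5, 20.9 and 19.3 with spinetoram and 39.6, 38.2 and 35.1 with cyantraniliprole (log2 fold change -0.92, SE 0.12, adjusted p = 0.017). In both genes the control libraries lay near the spinetoram libraries, at 24.3, 30.6 and 26.3 for calpain-B and 18.8, 17.8 and 18.1 for calpain-A. Calpain-C (LOC118282405) had 4.46, 2.59 and 9.25 against 3.62, 4.67 and 4.63 (adjusted p = 0.82), and calpain-7-like (LOC118269303) had 1.17, 1.42 and 1.24 against 2.05, 2.34 and 1.59 (unadjusted p = 0.02, adjusted p = 0.32). Without cyantraniliprole 1 the adjusted p of calpain-A was 0.097, and without cyantraniliprole 2 that of calpain-B was 0.17. The calpain family was looked at because its values had been seen.

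The other genes higher with spinetoram have unlike descriptions. The dj-1beta-like gene (LOC118280308), whose fly relative guards against oxidative stress, had 32.7, 29.4 and 26.3 scaled FPKM against 12.5, 10.5 and 14.6 (log2 fold change 1.24, SE 0.16, adjusted p = 0.016). Protein arginine N-methyltransferase 5 (LOC118262765), which methylates histones and splicing proteins, had 2.3, 2.69 and 1.54 against 0.464, 0.697 and 0.926 (1.64, SE 0.26, adjusted p = 0.031). Its controls had 3.0, 3.05 and 2.92, above every spinetoram library. Mediator subunit 15-like (LOC118276931), included through its spinetoram libraries alone, had low values with cyantraniliprole, at 0.141, 0.0551 and 0.13 against 1.24, 6.35 and 4.38 (5.19, SE 0.70, adjusted p = 0.017). The zinc finger gene CCHC 24-like (LOC118271994) had 5.59, 5.44 and 5.4 against 2.74, 2.49 and 3.12 (0.98, SE 0.15, adjusted p = 0.028). The remaining genes higher with spinetoram have no description: LOC118271719 (log2 fold change 1.19) and LOC118267606 (2.35).

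One of 2 genes described as 60S ribosomal protein L21, a component of the large ribosomal subunit, was higher with spinetoram. LOC118263860 had 768, 575 and 666 scaled FPKM with spinetoram and 199, 175 and 187 with cyantraniliprole (log2 fold change 1.84, SE 0.26, adjusted p = 0.021, up to 0.12 without cyantraniliprole 2). The other L21 gene, LOC118263700, had 1723.1, 2267.1 and 1349.7 against 1984.5, 1872.2 and 1901.3 (adjusted p = 0.87). Both genes together took 0.161 ± 0.022% of the units with spinetoram and 0.155 ± 0.0051% with cyantraniliprole (SD, n = 3, exact permutation p = 0.8). Reads may be split between near-identical copies, so the single values are uncertain. Of all 91 cytosolic ribosomal protein genes, LOC118263860 was the only one to pass. In 80 of them the log2 fold change was above 0, and the list median was 0.19. At an unadjusted p under 0.05, 9 were higher with spinetoram and 1 with cyantraniliprole, against 6.67% and 6.53% of all included genes. The list's share of the units overlapped, at 11.7 ± 1.5% with spinetoram and 11.5 ± 0.24% with cyantraniliprole (SD, n = 3, exact permutation p = 0.8). Spinetoram 3 had the lowest share of the 6 libraries.

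Genes higher with cyantraniliprole were led by a protease inhibitor. Serine protease inhibitor Kazal-type 1-like (LOC118271635) had 1.11, 0.688 and 0.672 scaled FPKM with spinetoram and 11.2, 6.24 and 8.56 with cyantraniliprole, a log2 fold change of -3.36 (SE 0.50, edgeR adjusted p = 0.025). The controls had 0.862, 1.89 and 2.81. The m7GpppX diphosphatase gene (LOC118276786), whose enzyme clears cap remnants after mRNA decay, had 3.98, 4.16 and 4.07 against 10.4, 9.81 and 9.55 (-1.28, SE 0.16, adjusted p = 0.013). It passed without 5 of the 6 libraries, with an adjusted p of 0.083 without cyantraniliprole 1. A circadian clock-controlled protein-like gene (LOC118276823), of a family that binds small lipophilic molecules such as juvenile hormone, had 10.3, 15.1 and 12.4 against 41.3, 38.2 and 30.6 (-1.54, SE 0.23, adjusted p = 0.025).

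The remaining described genes higher with cyantraniliprole were low in level or moderate in size. Alpha-tocopherol transfer protein-like (LOC118263738), of a family of lipid carriers, had 3.63, 2.04 and 2.99 scaled FPKM against 6.84, 6.67 and 9.04 (log2 fold change -1.38, SE 0.22, adjusted p = 0.029). Ecto-NOX disulfide-thiol exchanger 2 (LOC118272672), a cell surface oxidase, had 1.22, 1.48 and 1.47 against 5.75, 3.35 and 3.92 (-1.64, adjusted p = 0.025). The gene described as sid 1 (LOC118280242), a double-stranded RNA channel in worms, was included through its cyantraniliprole libraries alone and had 0.289, 0.504 and 0.326 against 1.12, 1.2 and 1.45 (-1.75, adjusted p = 0.027). Pre-mRNA-processing factor 6 (LOC118271743), of the spliceosome, had 1.56, 1.22 and 1.55 against 3.29, 2.63 and 2.52 (-0.96, adjusted p = 0.039). In each of these the groups did not overlap, which follows largely from their choice by difference. The undescribed genes LOC118279923 and LOC118279803 had log2 fold changes of -2.89 and -2.14. Deoxycytidylate deaminase (LOC118271271, -1.45, adjusted p = 0.059) and the E3 ubiquitin-protein ligase CBL-B-B (LOC118276676, -1.51, adjusted p = 0.06) had the next smallest p among described genes and did not pass.

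**Figure D3:**
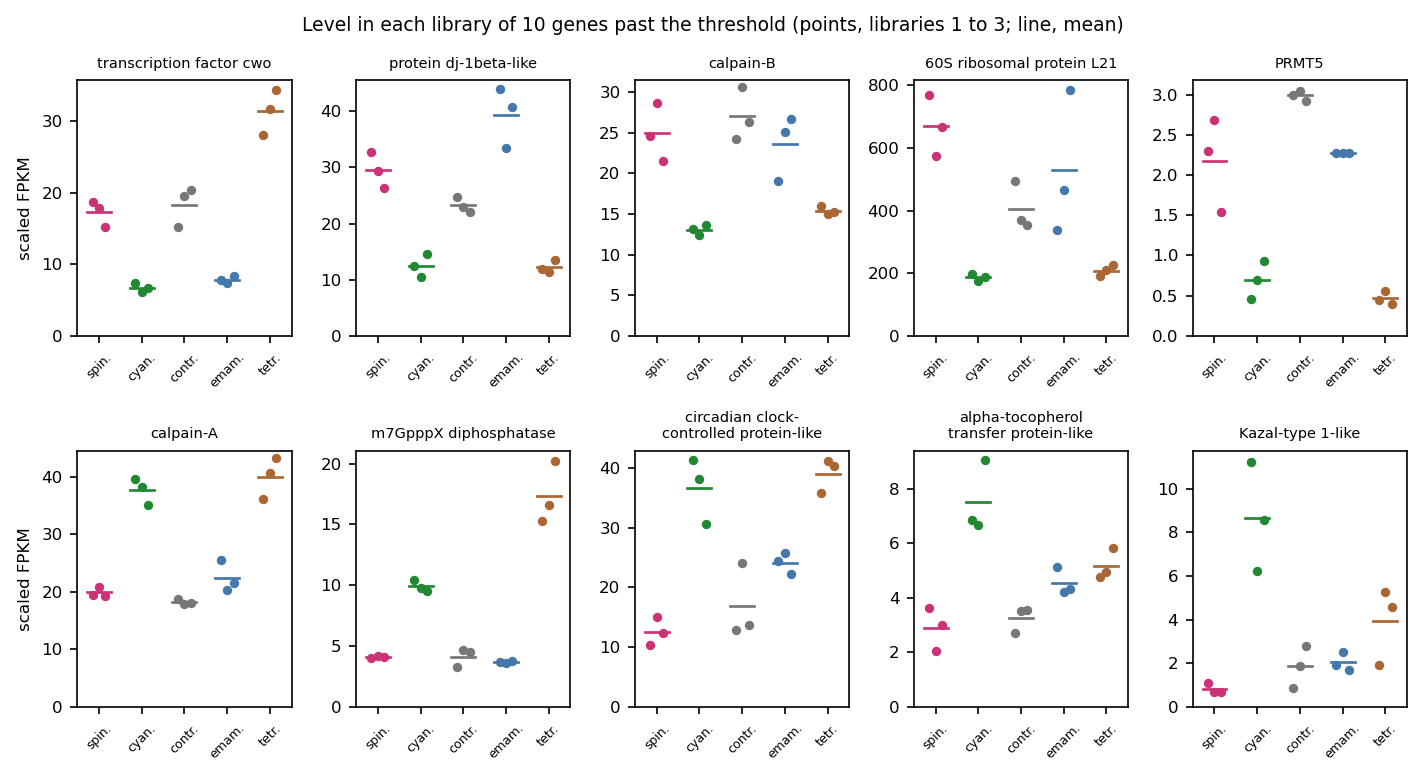
Scaled FPKM of 10 genes past the threshold in each of the 15 libraries by group (spin. spinetoram, cyan. cyantraniliprole, contr. control, emam. emamectin benzoate, tetr. tetrazolidamide), with points for libraries 1 to 3, a line for the group mean and axes that start at 0. In calpain-A the cyantraniliprole libraries lie at 35.1 to 39.6 and the spinetoram libraries at 19.3 to 20.9, and in cwo the order is reversed, at 6.13 to 7.38 and 15.2 to 18.7.

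Set against the 3 control libraries by edgeR, cyantraniliprole differed at an adjusted p under 0.05 in 16 of the 25 genes and spinetoram in 7, where the shares over all included genes were 3.58% and 5.41%. Both of these comparisons use the same controls and share the treated libraries that chose the 25 genes, so nothing is read from these counts. Calpain-A was 1.05 higher on the log2 scale with cyantraniliprole than in control (adjusted p = 0.0033) and 0.13 higher with spinetoram (adjusted p = 0.58). The C1B-like gene LOC118272659 was 4.90 higher with spinetoram than in control (adjusted p = 0.01), and its value for cyantraniliprole was -0.85 (adjusted p = 0.48). The comparison of emamectin benzoate with tetrazolidamide shares no library with that of spinetoram and cyantraniliprole, but both come from the same fit. Its libraries entered the spread by which the 25 genes passed, so the counts of these genes there are only a description. Emamectin benzoate minus tetrazolidamide called 2149 of the 10371 included genes (20.7%). Of the 25 genes, 11 passed there with the sign they had in spinetoram minus cyantraniliprole, 8 with the opposite sign, and 6 did not pass. Calpain-A had 36.1, 40.6 and 43.2 scaled FPKM with tetrazolidamide and 25.6, 20.3 and 21.5 with emamectin benzoate, so emamectin benzoate minus tetrazolidamide was -0.84 (adjusted p = 0.0012). For cwo the tetrazolidamide libraries were the high ones, at 28.1, 31.6 and 34.3 against 7.79, 7.44 and 8.37 with emamectin benzoate (-2.0, adjusted p = 2.6e-05).

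Among the detoxification lists, the juvenile hormone esterase-like gene was the one that passed by edgeR, and the values of the others are given as a description. UDP-glycosyltransferases, which attach sugars to foreign compounds, had a median log2 fold change of -0.39 over 32 genes, 6 above 0 and 26 below. At an unadjusted p under 0.05 there were 9 higher with cyantraniliprole and 2 higher with spinetoram, against 6.53% and 6.67% of all included genes, so that the 2 are near the background share. The family took 0.05, 0.0472 and 0.0459% of the units in spinetoram 1, 2 and 3 and 0.0909, 0.0946 and 0.062% in cyantraniliprole 1, 2 and 3, without overlap (exact permutation p = 0.1, the smallest possible). This held after division by the TMM factor. The UDP-glucuronosyltransferase 2B9-like gene LOC118279190 had 4.6, 2.46 and 1.06 scaled FPKM with spinetoram and 19.2, 20.9 and 6.5 with cyantraniliprole (log2 fold change -2.51, SE 0.62, adjusted p = 0.13), and its neighbour 2B19-like (LOC118279189) had 7.54, 4.22 and 3.58 against 26.8, 30.2 and 12.5 (-2.18, adjusted p = 0.14). The members with the smallest p above 0 were UGT33B15 and 2B20-like. UGT33B15 (LOC118279154) had 25.2, 17.8 and 17 against 14.1, 11.3 and 11.6 (0.70, adjusted p = 0.18), and 2B20-like (LOC118279413) had 5.51, 3.07 and 6.46 against 2.64, 2.46 and 2.62 (0.96, adjusted p = 0.3).

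Of 33 CYP6 and CYP9 P450s, families often tied to insecticide metabolism, 5 were higher with cyantraniliprole and 2 with spinetoram at an unadjusted p under 0.05, at a median of -0.20. The background for this and the other P450 lists was 6.53% and 6.67% of all included genes, so that the 2 are near it. The 9e2-like gene LOC118264054 had 8.28, 13.0 and 4.07 scaled FPKM with spinetoram against 33.3, 20.8 and 40.7 (log2 fold change -1.90, SE 0.44, adjusted p = 0.12), without overlap. CYP6B68 (LOC118273914) had 22.4, 29.1 and 26.5 against 75.1, 38.2 and 42.7 (-1.0, adjusted p = 0.2). The 6B6-like gene LOC118263048 had its high values with spinetoram, at 5.29, 8.22 and 11.1 against 0.564, 2.82 and 2.13 (2.15, SE 0.65, adjusted p = 0.21), as did the 6B6-like gene LOC118274175, at 41.6, 27.0 and 32.9 against 17.9, 9.71 and 23.8 (0.98, adjusted p = 0.41). Among 34 other P450s, 5 were higher with cyantraniliprole and 2, again near the background, with spinetoram, at a median of -0.40, the lowest of the 32 lists. CYP321A10 (LOC118268549) had 1.15, 0.301 and 0.479 against 10.6, 11.5 and 1.37 (-3.59, adjusted p = 0.19) and CYP321A9 (LOC118268506) had 2.27, 1.78 and 3.38 against 17.5, 3.82 and 4.78 (-1.81, adjusted p = 0.26), so single cyantraniliprole libraries came close to the spinetoram values in both. CYP321B1 (LOC118262947) had 1.28, 1.16 and 1.53 against 0.46, 0.45 and 0.564 (1.42, adjusted p = 0.28), and CYP304F1 (LOC118268212) had 4.29, 4.14 and 5.61 against 2.9, 2.27 and 1.54 (1.06, adjusted p = 0.35). Of 27 CYP4 genes, 1 was higher with spinetoram at an unadjusted p under 0.05 and 0 with cyantraniliprole.

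Of 13 glutathione S-transferases, 2 were higher with spinetoram and 4 higher with cyantraniliprole at an unadjusted p under 0.05. For this list and the next ones the shares of all included genes were 6.67% and 6.53%. The 2-like gene LOC118272015 had 40.9, 36.2 and 39.6 scaled FPKM with spinetoram and 93.6, 91.6 and 66.2 with cyantraniliprole (log2 fold change -1.10, SE 0.32, adjusted p = 0.18), and the 1-like gene LOC118270359 had 20.3, 17.8 and 16.7 against 12.8, 12.4 and 8.59 (0.70, adjusted p = 0.34). Carboxyl/cholinesterases had 8 of 66 higher with spinetoram and 4, near the background share, higher with cyantraniliprole, 1 passing, at a median of 0.12. Carboxylesterase 1E (LOC118272089) had 0.931, 0.825 and 0.701 against 1.89, 2.52 and 2.89 (-1.57, adjusted p = 0.14), and antennal esterase CXE11 (LOC118272376) had 14.0, 14.9 and 11.9 against 17.1, 21.1 and 20 (-0.51, adjusted p = 0.19). ABC transporters, which export conjugates, had 1 of 39 higher with spinetoram and 0 higher with cyantraniliprole, at a median of 0.01.

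**Figure D4:**
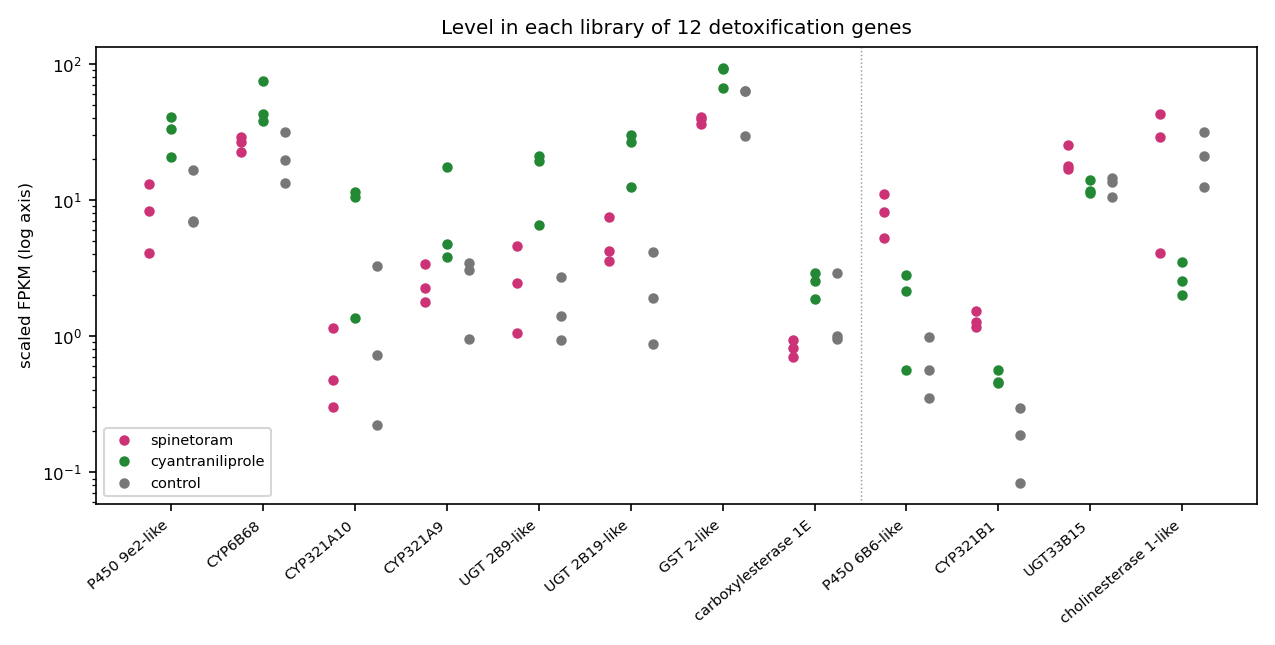
Scaled FPKM on a log axis of 12 detoxification genes in the 3 spinetoram, 3 cyantraniliprole and 3 control libraries, 1 point for each library; UGT is UDP-glycosyltransferase or UDP-glucuronosyltransferase and GST is glutathione S-transferase. Left of the dotted line are 8 genes with a negative log2 fold change, such as UGT 2B9-like at -2.51, and right of it 4 with a positive one, such as P450 6B6-like at 2.15; none of the 12 passed the adjusted threshold.

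No digestive serine protease passed. Of 70 trypsins and chymotrypsins, 10 were higher with spinetoram and 1 with cyantraniliprole at an unadjusted p under 0.05, against 6.67% and 6.53% of all included genes, at a median log2 fold change of 0.43 with 52 above 0. Their share of the units was 2.49, 2.63 and 1.72% with spinetoram and 1.54, 0.736 and 2.02% with cyantraniliprole, so that cyantraniliprole 3 lay above spinetoram 3 (exact permutation p = 0.2). A trypsin-like precursor gene (LOC118274829) had 108, 91.5 and 200 scaled FPKM against 32.5, 5.59 and 29.5 (2.57, SE 0.58, adjusted p = 0.11). The chymotrypsinogen B-like gene LOC118268184 had 164, 215 and 233 against 254, 266 and 352 (-0.51, adjusted p = 0.4). A pancreatic triacylglycerol lipase-like gene (LOC118273313) had 88.3, 90.5 and 61.3 against 27.6, 12.3 and 32.5 (1.73, adjusted p = 0.095), while pancreatic lipase-related protein 2-like (LOC118264914) had 0.228, 0.528 and 1.58 against 8.73, 8.24 and 4.27 (-3.15, adjusted p = 0.13). Carboxypeptidase B-like (LOC118275055) had 103, 110.0 and 88.3 against 49.6, 38.2 and 52.5 (1.10, adjusted p = 0.12). The list of peritrophic matrix and chitin turnover genes, which marks the midgut lining among other tissues, had 1 of 23 genes at an unadjusted p under 0.05 and 0.326 to 0.824% of the units with spinetoram against 0.442 to 0.583% with cyantraniliprole. The part of midgut content in these values was not tested.

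The genes of the insecticides' targets did not pass. The ryanodine receptor gene LOC118277034 had 11.4, 9.54 and 9.22 scaled FPKM with spinetoram and 6.52, 6.22 and 5.91 with cyantraniliprole, without overlap, a log2 fold change of 0.70 (SE 0.29, unadjusted p = 0.033, adjusted p = 0.38). The other ryanodine receptor gene, LOC118276673, had 15.6, 14.2 and 20 against 25.8, 16.4 and 15.9 (-0.22, SE 0.26, adjusted p = 0.8). Only 3 of 17 nicotinic acetylcholine receptor subunit genes reached the level for inclusion; they encode channels that sit mainly on neurons. Alpha-5-like (LOC118263132) had 2.51, 2.66 and 2.44 against 4.16, 3.95 and 4.24 (-0.70, SE 0.83, adjusted p = 0.81), and alpha-7-like (LOC118270347) had 2.13, 2.0 and 1.73 against 1.35, 1.43 and 1.47 (0.46, SE 0.22, adjusted p = 0.46). Both had groups without overlap, as 20.2% of all included genes did. The SE of alpha-5-like draws on all 15 libraries, among them those of tetrazolidamide at 7.93, 2.12 and 0.238. In the edgeR fit of only the 6 libraries the adjusted p of alpha-5-like was 0.2. Beta-3-like (LOC118279341) had 1.87, 2.54 and 4.11 against 3.15, 2.83 and 1.69 (0.16, SE 0.45, adjusted p = 0.95).

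Of 15 genes for the ryanodine receptor and calcium handling, 2 were higher with spinetoram and 1 with cyantraniliprole at an unadjusted p under 0.05. All included genes had shares of 6.67% and 6.53%. Calreticulin (LOC118281274), a calcium-binding chaperone of the endoplasmic reticulum, had 214, 171 and 252 scaled FPKM with spinetoram and 302, 343 and 341 with cyantraniliprole (log2 fold change -0.63, SE 0.19, adjusted p = 0.21). The calcium channel subunit alpha-2/delta-3 (LOC118272464) had 3.35, 3.96 and 2.94 against 2.08, 3.27 and 2.11 (0.46, adjusted p = 0.36). Muscle structure genes took 18.7 to 20.4% of the units with spinetoram and 16.3 to 19.9% with cyantraniliprole (exact permutation p = 0.3), with 1 of 48 genes higher with spinetoram and 2 higher with cyantraniliprole. Muscle actin (LOC118279073), the most abundant gene, had 37628.6, 45678.6 and 40963.3 against 38050.3, 28553.2 and 30031.7 (0.36, SE 0.25, adjusted p = 0.62).

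No clock gene other than cwo passed. These families were taken up after the values of cwo and LOC118276823 had been seen, so their counts are a description. The period gene (LOC118261937), whose protein feeds back on the clock, had 15.9, 17.2 and 12.1 scaled FPKM with spinetoram and 24.8, 20.9 and 20.9 with cyantraniliprole (log2 fold change -0.56, SE 0.18, unadjusted p = 0.008, adjusted p = 0.22). The activators Clock (LOC118266218) and cycle (LOC118268768) had log2 fold changes of -0.15 and 0.13, and the timeless homolog (LOC118268375) had 0.02. Of 19 takeout and circadian clock-controlled genes, 4 were higher with spinetoram and 5 higher with cyantraniliprole at an unadjusted p under 0.05. Among all included genes the shares were 6.67% and 6.53%. A takeout-like gene (LOC118262220) had 19.4, 6.4 and 27.2 against 1.69, 2.27 and 1.14 (3.37, SE 0.61, adjusted p = 0.059), and the clock-controlled gene LOC118276477 had 66.7, 64.9 and 50.9 against 156, 132 and 127 (-1.18, SE 0.35, adjusted p = 0.19).

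No gene of the stress and energy lists passed. Heat shock proteins had 2 of 43 higher with spinetoram and 1 with cyantraniliprole at an unadjusted p under 0.05, against 6.67% and 6.53% of all included genes. A heat shock protein 70 gene (LOC118280660) had 3.62, 4.39 and 2.8 scaled FPKM against 0.437, 1.44 and 1.43 (log2 fold change 1.71, adjusted p = 0.13). Antioxidant enzymes had 2 of 38 higher with spinetoram and 3 with cyantraniliprole. Thioredoxin-2 (LOC118276635), a small redox protein, had 232, 227 and 183 against 360.0, 353 and 278 (-0.63, SE 0.14, adjusted p = 0.11), without overlap. Peroxiredoxin-2-like (LOC118270450) had 41.8, 40 and 43.0 against 30.5, 25.9 and 30.0 (0.53, adjusted p = 0.21). Of 65 oxidative phosphorylation genes 61 had a log2 fold change above 0 at a median of 0.23, where all included genes had 5198 above 0 and 5173 below. At an unadjusted p under 0.05 there were 4, all higher with spinetoram, which is near the 6.67% of all included genes. Their share of the units overlapped, at 1.85, 1.67 and 1.52% with spinetoram and 1.57, 1.67 and 1.68% with cyantraniliprole (exact permutation p = 0.9). The shares of units of the heat shock proteins and of the antioxidant enzymes were lower in all 3 spinetoram libraries (exact permutation p = 0.1 for each, the smallest possible), and overlapped after division by the TMM factor. Antimicrobial peptides and lysozymes had 1 of 30 genes at an unadjusted p under 0.05, higher with cyantraniliprole.

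A pair of V-type proton ATPase subunit B genes, which encode part of a proton pump, had log2 fold changes of opposite sign, and neither passed. LOC118270369 had 414, 415 and 382 scaled FPKM with spinetoram and 198, 233 and 254 with cyantraniliprole (log2 fold change 0.82, SE 0.20, adjusted p = 0.12). LOC118270348 had 193, 203 and 93.7 against 198, 297 and 289 (-0.68, SE 0.35, adjusted p = 0.5). The first separated the groups and the second did not, and the split of reads between genes of the same description is uncertain. Of all 20 subunit genes, 3 were higher with spinetoram and 0 with cyantraniliprole at an unadjusted p under 0.05, against 6.67% and 6.53% of all included genes.

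**Figure D5:**
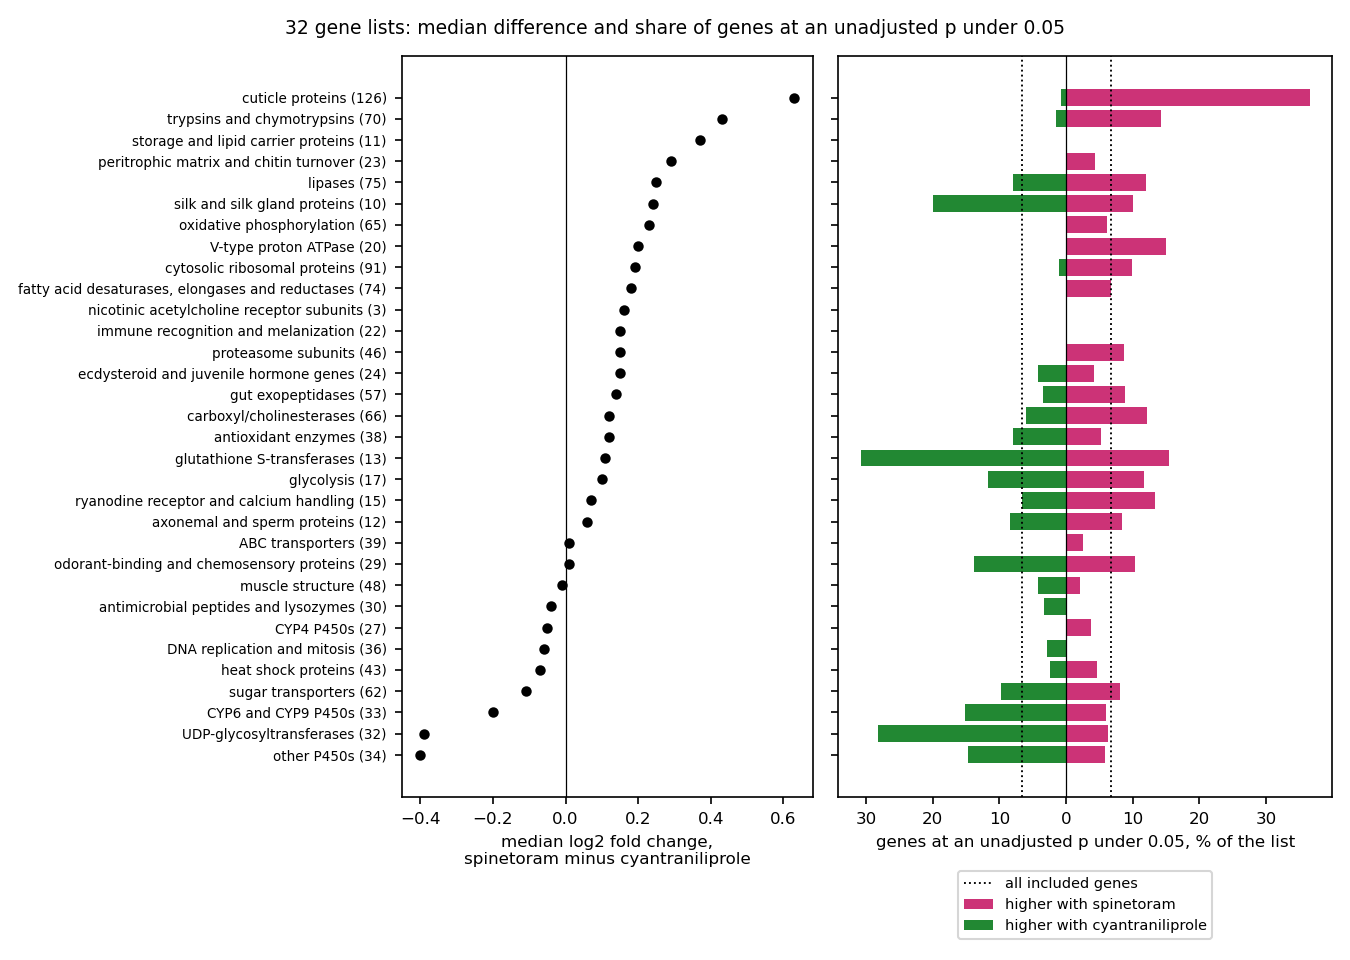
The 32 gene lists, with the number of tested genes in brackets, are ordered by the median edgeR log2 fold change, spinetoram minus cyantraniliprole, on the left, and bars on the right give the share of each list at an unadjusted p under 0.05 in each direction beside dotted lines for all included genes (6.67% and 6.53%). Cuticle proteins stand at the top with a median of 0.63 and other P450s at the base with -0.40.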

How the data were processed

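Per the labels' protocols, whole-body RNA was taken up in TRIzol, enriched for polyadenylated transcripts and turned into dUTP-stranded libraries; how strand was handled in counting and the genome build are not given in the sources used here. The submitters' processing notes list, without roles, DESeq2, edgeR, StringTie 1.3.4d, HISAT2 2.0.4 and cutadapt 1.9. In 1 deposited table the authors give each gene an estimated count, as a whole number, and an FPKM value (named so per the file headers). Low counts step by about 3.83 units, taken here as 1 read pair.

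Counts of all 15 libraries entered 1 edgeR 4.0.16 quasi-likelihood fit (R 4.3.3; TMM factors, filterByExpr with a minimum count of 10, 1 coefficient per group), with Benjamini-Hochberg adjustment over 15505 genes and a two-sided threshold of 0.05. The other 9 libraries have no part in the contrast, but enter the spread, the scaling and the filter on low counts; a fit of only the 6 libraries tests 14283 genes. The common dispersion was 0.3, a coefficient of variation of 54.8%. Of the included genes 2 had too few counts to be tested. Printed levels are FPKM divided by the TMM factor (0.906 to 1.12 in the 6 libraries). Fold changes are fitted to counts.

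The 32 lists are patterns on gene descriptions, which rest on similarity to other species. The included genes and the lists were chosen with earlier results of these data known, and antichymotrypsins, CYP49, cAMP enzymes and a gonadotropin receptor were taken out of lists after values were seen. Calpains, clock and takeout genes, Kazal-type inhibitors and L21 were added after values were seen. Named genes were the 10 largest described differences past the threshold in each direction, filled by smallest p; the smallest p in each direction in each list (2 for detoxification lists); target genes whatever their p; and the most abundant gene. The other passing genes are named as well.

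Alternatives used DESeq2 1.42.0, limma 3.58.1, other filters and scalings, fewer libraries and a replicate block.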

Additional observations from a re-analysis of the deposited data

How the results depend on the processing

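In each of the 20 alternatives, every one of the 25 passing genes that was tested kept its direction; 277 of 492 values kept their side of the threshold and 215 lost it. The count of 28 genes (16 higher with spinetoram, 12 higher with cyantraniliprole) was 577 (339 and 238) by DESeq2, 120 (51 and 69) and 110 (48 and 62) by limma-trend with a pseudocount of 1 and 0.1, and 2 (1 and 1) in a fit without tetrazolidamide. A fit of only the 6 libraries called 0 genes by edgeR, 0 in each direction (1651 at an unadjusted p under 0.05), 763 (409 and 354) by DESeq2 and 3 (1 and 2) by limma-trend; the last of these fits and that of DESeq2 were chosen after seeing the data. The cause of these differences was not tested. With other size factors, filters or read pair steps the count was 23 to 39. Leaving out single libraries gave 3 to 29 genes, 2 to 16 higher with spinetoram and 1 to 13 higher with cyantraniliprole.

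With the replicate number as a block the count was 17 (10 higher with spinetoram, 7 higher with cyantraniliprole) in the fit of 15 libraries and 0 (0 and 0) in that of 6, with 1311 at an unadjusted p under 0.05. The deviations of same-numbered spinetoram and cyantraniliprole libraries correlated at 0.099, -0.035 and -0.13. These values cannot show whether same-numbered libraries shared a rearing, which the labels do not tell.

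Of the 32 lists, 10 had shares of units without overlap between the groups, all lower with spinetoram; this was 3 when shares were divided by the TMM factor, an alternative chosen after seeing the data, of which 1 (UDP-glycosyltransferases) was among the 10 and the other 2 (carboxyl/cholinesterases and fatty acid genes) were higher with spinetoram; and it was 10 to 16 when single libraries were left out. List medians kept within the spread of their libraries in 574 of 639 values. With 3 libraries a group, an exact test cannot go below 0.1, and genes near 1 FPKM rest on few read pairs.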

Other observations

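Neighbouring genes outside the cuticle families also differed together. In the order of the deposited positions, 18 rows of 4 or more neighbouring tested genes had the same direction at an unadjusted p under 0.05, with 106 genes in all, 13 rows higher with spinetoram and 5 higher with cyantraniliprole. Of these rows 8, with 61 genes, held a gene of the cuticle list. The rows held 80 of the 10371 tested included genes and 7 of the 25 past the adjusted threshold. Rows were built from genes at a small unadjusted p, which the 25 had by choice, so nothing is read from the 7. No test of rows was made, and neighbours with similar sequences can share reads.

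Protein arginine N-methyltransferase 5 (LOC118262765) stood in a row of 8 genes higher with spinetoram whose descriptions have no common family. Its neighbours included the mitochondrial ribosomal protein L51 gene (LOC118262605), at 6.23, 4.16 and 6.61 scaled FPKM with spinetoram and 2.23, 2.09 and 2.12 with cyantraniliprole (edgeR adjusted p = 0.15). The ubiquinone biosynthesis gene COQ4 (LOC118262767) had 2.41, 1.99 and 2.71 against 0.18, 0.656 and 0.905 (adjusted p = 0.11). With tetrazolidamide, the same genes had 1.74, 0.744 and 2.79 for L51 and 1.53, 0.853 and 1.21 for COQ4. The copper uptake gene of the row (LOC118262862) had 9.4, 11.4 and 8.87 with spinetoram, 4.58, 6.45 and 6.44 with cyantraniliprole and 0.663, 0.694 and 1.04 with tetrazolidamide. Its controls had 9.33, 9.29 and 10.4, among the spinetoram values.

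A row of 4 neighbouring UDP-glycosyltransferase genes was higher with cyantraniliprole, with log2 fold changes from -1.36 to -2.51 and adjusted p from 0.13 to 0.38. A row with 2 P450 9e2-like genes (LOC118264059 and LOC118264054) had -1.31 and -1.90. In the largest cuticle row beside that of the C1B-like genes, a cuticle protein 7-like gene (LOC118262024) had 183, 35.2 and 70.3 scaled FPKM with spinetoram and 0.696, 0.653 and 0.647 with cyantraniliprole (log2 fold change 7.15, SE 1.51, adjusted p = 0.095).

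The fibroin heavy chain-like gene LOC118270804, of the silk gland, had 2.67, 2.96 and 2.96 scaled FPKM with spinetoram and 7.48, 15.7 and 419 with cyantraniliprole (unadjusted p = 0.004, adjusted p = 0.18), so its level with cyantraniliprole rested on 1 library. The controls had 15.2, 38.8 and 149.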
